A study of Homo sapiens with 5 samples.

Results

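The small nucleolar RNA (snoRNA) host genes are noncoding or short protein-coding genes whose introns hold snoRNAs. The host genes described here were all genes with a symbol of SNHG and a number, plus GAS5 and ZFAS1. EPB41L4A-AS1, another host, was left out. The names in use gave 30 such genes, of which 28 had a row among the 56632 genes of each table. SNHG8 was not analysed here, and SNHG4 was not separable because 8 of its 9 GENCODE transcripts were listed under the identifier of MATR3, together 46 transcripts in that row. Of the 28, 24 had a mean of at least 1 FPKM over the 5 libraries and were analysed among 11764 genes. FPKM is the number of fragments scaled to transcript length in kilobases and to the total fragments of the library. SNHG28 did not exceed 0.21 FPKM in any library, SNHG31 did not exceed 0.04, SNHG22 did not exceed 0.01 and SNHG27 was listed at 0 in all 5.

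A snoRNA host gene is transcribed by RNA polymerase II and spliced, and the snoRNAs are trimmed out of its introns to guide the chemical modification of ribosomal and other RNAs. What is left is the spliced exonic RNA, and many hosts carry only short open reading frames, so that the RNA is removed by nonsense-mediated decay in the cytoplasm when it is translated. Several hosts, like the ribosomal protein genes, start transcription at a C followed by a run of pyrimidines, known as a 5′ terminal oligopyrimidine (TOP) tract. hnRNPK is an RNA-binding protein whose KH domains bind stretches of C.

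MCF10A is an established, non-tumorigenic line of human breast epithelial cells, and all 5 libraries came from untreated cultures of it. RNA immunoprecipitation (RIP) recovers the RNA that comes down with a protein, and RIPseq counts it against an input, the RNA of the lysate before the pulldown. The design asked which transcripts came down with CBFB, the partner subunit of the RUNX transcription factors, and with hnRNPK. It held 1 input and 1 FLAG antibody RIP from a stable MCF10A line expressing FLAG-tagged CBFB, and 1 input and 2 hnRNPK antibody RIP repeats from parental MCF10A cells. The study describes stable FLAG-CBFB lines, used for protein pulldowns, that were made in CBFB knockout MCF10A cells. The labels do not say whether the FLAG-CBFB line of these libraries had that background, or whether it was 1 clone. They also do not say whether the hnRNPK repeats came from separate cultures, so the spread between the repeats may be technical. No RIP with a control antibody was analysed here. The estimated counts summed to between 69786576 and 106855647 per library. The share of counts on mitochondrial genes was 4.27% and 11.2% for the inputs (FLAG-CBFB and parental cells), 62.2% for the FLAG antibody library, and 84.5% and 86.6% for the hnRNPK repeats. Their part in the host gene values was not tested beyond the rescaled values given among the alternatives. The keratins KRT5 and KRT17 of basal breast epithelium were listed at 539.9 FPKM or more in both inputs, and KRT14 at 6.78 and 1.81. The luminal keratins KRT8 and KRT18 were also present, at 76.6 and 306 FPKM in the FLAG-CBFB cells and 196 and 702 in the parental cells, and KRT19 did not exceed 0.35. The blood markers PTPRC and CD3E and the fibroblast marker COL1A2 were at or below 0.01 in the inputs, and the fibroblast marker DCN was at 0.31 and 0.90.

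The first bases of the transcripts are shown because a pyrimidine start is a feature that hosts share with ribosomal protein genes. RefSeq starts on GRCh38.p14 were found for 20 of the 24 analysed hosts, without SNHG6, SNHG9, SNHG15 and SNHG25, whereas the deposited tables were made on hg19. Each line below runs 5′ to 3′ from 5 bases before the start to 25 bases from it, and capitals mark the C or T run that begins at a start on C.
SNHG5: tcggtCTTTTacgtcggccttcgcgagcgt
SNHG19: cctgtCTTTTCggggtcgagtccgaggggg
ZFAS1: tcgttCTTTCgcgtctgcggtgcccggagt
SNHG32: tagttCTTTTTgcgaagtgggctcgtgggt
SNHG12: agcgcCCTTTCTCCCCgccgcattcccggt
SNHG18: gccgcCTCCTCCTCCTCCTCCTCCCCgccg
SNHG29: tgtgaggattgggatattccgactccttaa
These 30-base stretches lie at chr6:85678709-85678738 on the minus strand for SNHG5, chr16:2155334-2155363 on the minus strand for SNHG19, chr20:49278637-49278666 on the plus strand for ZFAS1, chr6:31834911-31834940 on the plus strand for SNHG32, chr1:28581849-28581878 on the minus strand for SNHG12, chr5:9546195-9546224 on the plus strand for SNHG18 and chr17:16438982-16439011 on the plus strand for SNHG29. The first 6 were all the hosts with a C at the start followed by at least 4 bases that were each C or T, read on the transcribed strand. SNHG29 is shown as a strong host without such a start. The 6 of 20 hosts make 30%, beside 67.2% of the 64 matched ribosomal protein genes, 5.73% of 8904 matched analysed genes and 4.07% of all 35116 promoters in the table. The table gives 1 start a gene, and hosts can have others.

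Stretches of C are shown because hnRNPK binds them. For each gene the GENCODE 29 transcript nearest in length to the mean length listed in the parental input was read. Its 30 bases richest in C are given for 5 hosts, 2 at or near the top of the hnRNPK values (SNHG26 and SNHG18), 2 at the bottom (SNHG5 and SNHG19) and SNHG16 for its long C runs, with runs of 3 or more C in capitals.
SNHG18: cctCCCCgagCCCCtCCCCgggCCCCgCCC
SNHG16: agaCCCCCCtcctCCCCCCCagctgctgcc
SNHG26: gaaacttCCCagCCCCCtgaactcagcctc
SNHG19: CCCtgggcgtccaggcctggcctacgcacc
SNHG5: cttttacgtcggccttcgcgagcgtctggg
They lie at bases 58 to 87 of SNHG18, 1841 to 1870 of SNHG16, 58 to 87 of SNHG26, 127 to 156 of SNHG19 and 1 to 30 of SNHG5, counted from the transcript's 5′ end. A run of at least 4 C (CCCC on the transcript strand) was present in 20 of the 24 hosts, or 83.3%, and in 94.4% of 11538 analysed genes with a transcript. SNHG5, SNHG6, SNHG19 and SNHG21 held none. The hosts had a median of 1.71 such runs per kilobase, the analysed genes 3.46, and the 925 matched genes above 4-fold in the hnRNPK RIP 7.56. The 5 hosts shown do not stand for the rest. SNHG18 had 11.1 runs per kilobase and SNHG26 1.74. The place of SNHG18 near the top rests on the log2(FPKM + 1) scale explained below. A value of 0 in both hnRNPK RIPs would have given it 0.72, beside the 0.90 found. On counts its log2 change in edgeR was -0.49, so it is no example of hnRNPK recovery. SNHG25 (9.43), SNHG9 (7.27) and SNHG15 (6.52) had many runs at hnRNPK values of -2.86, -1.90 and -1.45. The hosts were short, with a median of 847 nt against 2003 nt. A run of C is a description of the letters and not of a binding site.

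The host genes spanned a wide range in the parental input, from 929.6 FPKM for GAS5 to 2.80 for SNHG18. In the sentences on FPKM levels that follow, the 5 values stand in the order input of FLAG-CBFB cells, FLAG-CBFB RIP, parental input, hnRNPK RIP repeat 1 and hnRNPK RIP repeat 2. GAS5, the growth arrest specific transcript, read 802, 220.0, 929.6, 28.9 and 28.6. SNHG29, annotated in GENCODE 29 as LRRC75A-AS1, read 1496, 315, 861, 37.3 and 23.8. SNHG5 read 588, 186, 844, 11.1 and 11.7. These 3 hosts were the most abundant in both inputs.

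ZFAS1, which holds SNORD12 and its relatives, read 278, 68.7, 294.5, 6.07 and 4.22. SNHG6, the host of SNORD87, read 213, 73.5, 242, 6.80 and 9.47. SNHG1, known as the U22 host gene, read 90.0, 34.5, 175.7, 5.82 and 8.77. All were lower in each RIP than in either input. SNHG32, annotated as protein-coding C6orf48 and holding SNORD48 and SNORD52, read 164, 35.9, 169.9, 5.90 and 5.08. SNHG19, the host of SNORD60, read 48.3, 16.7, 124, 0.67 and 1.85. SNHG7 read 63.8, 18.4, 78.5, 3.26 and 2.83. SNHG16, which holds SNORD1B, stood out among these with more RNA in the FLAG-CBFB input, at 105, 27.3, 77.6, 5.46 and 4.33.

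Hosts of middling level followed. SNHG3, the host of SNORA73B, read 26.2, 15.2, 63.7, 2.24 and 2.71. SNHG12 read 24.1, 10.3, 49.2, 0.99 and 3.01. SNHG15 read 18.3, 6.94, 35.4, 0.99 and 1.28. The parental input was the highest library for all 3. SNHG17, with 4 SNORA71 genes, read 19.2, 6.09, 34.3, 1.24 and 1.38. SNHG9 read 19.1, 4.56, 47.7, 0.70 and 1.55. SNHG25, the host of SNORD104, read 16.6, 28.4, 160.1, 0.34 and 8.48. SNHG25 was the only analysed host with more FPKM in a RIP than in that RIP's own input.

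Among the weak hosts, SNHG11 read 5.28, 1.68, 9.20, 0.33 and 0.50. SNHG10, which holds SCARNA13, read 4.37, 1.85, 9.38, 0.13 and 0.26. SNHG21 read 3.50, 1.45, 10.2, 0.30 and 0.45. All were under 1 FPKM in both hnRNPK repeats. SNHG30, the host of SNORD7, read 3.02, 1.05, 7.08, 0.16 and 0.13. SNHG20 read 2.93, 1.27, 5.8, 0.25 and 0.26. SNHG14, the long host of the imprinted SNORD115 and SNORD116 clusters, read 2.63, 1.12, 5.62, 0.54 and 0.66. These too were below 1 FPKM in each hnRNPK repeat. SNHG26, the host of SNORD93, read 2.40, 1.42, 4.97, 0.85 and 1.14. SNHG18, the host of SNORD123, read 1.51, 0.72, 2.80, 0.16 and 0.11. Hosts at 1 FPKM or more numbered 24 in each input, 23 in the FLAG-CBFB RIP, 11 in hnRNPK repeat 1 and 17 in repeat 2.

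**Figure D1:**
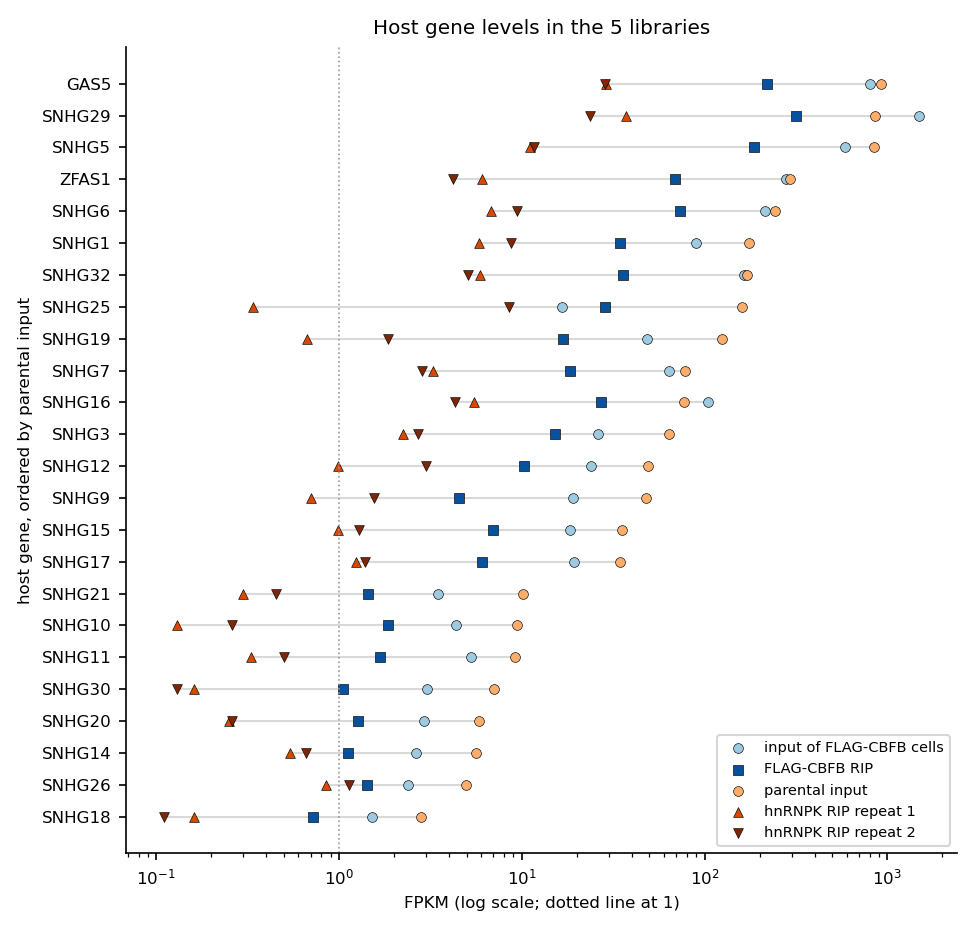
Levels of the 24 analysed host genes. The horizontal axis gives FPKM on a log scale with a dotted line at 1, each row is a gene ordered by the parental input, and each symbol is 1 of the 5 libraries. The hnRNPK RIP triangles lie left of both inputs in every row.

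Of the non-mitochondrial counts, the host genes together took 0.237% before the FLAG pulldown (95% Wilson limits 0.236 and 0.238) and 0.162% after it (limits 0.161 and 0.163). The share was 0.259% for the parental input (limits 0.258 and 0.260), 0.0516% for hnRNPK repeat 1 (limits 0.0505 and 0.0527) and 0.0563% for repeat 2 (limits 0.0550 and 0.0577). The hnRNPK share was thus 5.03- and 4.60-fold below the parental input, and the FLAG-CBFB share 1.46-fold below its own. The inputs differed 1.09-fold in this sum. SNHG29 alone held 107643 of the 242238 host counts before the FLAG pulldown and 43388 of 160626 in the parental input. It was higher in the FLAG-CBFB input, whereas 16 of 24 hosts were lower there by the threshold given with the inputs. The intervals cover counting error only.

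The hosts were mostly low in the hnRNPK RIP. Enrichment was taken as log2(FPKM + 1) in a RIP minus that in its own input, centred on the mean over the 11764 analysed genes, so that 0 is the average gene and 2 is 4-fold above it. The mean log2 change removed by centring was -1.34 for FLAG-CBFB and -2.61 and -2.68 for the hnRNPK repeats. The median enrichment of the 24 hosts was -1.54 in the hnRNPK RIP, with -1.66 and -1.36 in the repeats, against -0.11 over all analysed genes. None of the hosts was above 4-fold, where 8.2% of all analysed genes were, and 1 (SNHG26) was above 2-fold, where 20.9% were. In the other direction 16 of 24 hosts were below -1, beside 25.3% of analysed genes, and 8 were below -2, beside 6.24%. The 8 were GAS5, ZFAS1, SNHG5, SNHG6, SNHG19, SNHG25, SNHG29 and SNHG32.

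By the mean of the repeats, the lowest hnRNPK values were those of SNHG5 (-3.52 and -3.38 in the repeats), SNHG19 (-3.62 and -2.78) and ZFAS1 (-2.78 and -3.14). GAS5 stood at -2.35 and -2.30, SNHG29 at -1.88 and -2.44, SNHG6 at -2.35 and -1.86 and SNHG32 at -2.02 and -2.13. For comparison GAPDH, which the study used as an unbound transcript, stood at -2.66 and -2.72, and RUNX1, its bound transcript, at 3.29 and 2.89. SNHG5 was thus lower than GAPDH in both repeats. SNHG19 and ZFAS1 were also lower, but by little in 1 repeat each. SNHG19 stood at -2.78 beside -2.72 in repeat 2, on 29 counts, and ZFAS1 at -2.78 beside -2.66 in repeat 1. GAPDH was not set against the other input, where SNHG19 stood at -1.89. SNHG1 (-2.09 and -1.50), SNHG9 (-2.23 and -1.58), SNHG7 (-1.61 and -1.70), SNHG3 (-1.71 and -1.44), SNHG12 (-2.05 and -0.97), SNHG15 (-1.58 and -1.32), SNHG17 (-1.37 and -1.21) and SNHG16 (-0.995 and -1.202) lay between. The SD of the difference between the repeats was 0.66 over the hosts and 0.35 over all analysed genes, and without SNHG25 it was 0.37 over the other 23 hosts.

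SNHG25 carried the widest gap between the repeats, at -4.30 and -1.41. Its hnRNPK values rested on 4 estimated counts in repeat 1 and 1 in repeat 2, although the FPKM of repeat 2 was the higher at 8.48 against 0.34. Its mean transcript length was listed as 278 nt in repeat 1 and 106 nt in repeat 2. The value of SNHG25 is therefore uncertain.

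The 8 hosts under 10 FPKM stood higher than the 16 above it on this scale. The strong hosts had a median hnRNPK enrichment of -1.99, beside -1.14 over all 4884 analysed genes of at least 10 FPKM. All 16 were below 0, beside 77.3% of those genes. The weak hosts had a median of 0.02. A gene at a few FPKM cannot fall far on a log2(FPKM + 1) scale: a value of 0 in both RIPs would have given SNHG26 0.07, SNHG18 0.72, SNHG14 -0.08, SNHG20 -0.12 and SNHG30 -0.37. SNHG26 stood at 0.919 and 1.199 and SNHG14 at 0.51 and 0.68. SNHG18 stood at 0.90 and 0.90 and SNHG20 at 0.17 and 0.25. Any FPKM above 0 lies above that limit, so a value above it shows detection only. SNHG30 (-0.19 and -0.16), SNHG11 (-0.33 and -0.09), SNHG21 (-0.49 and -0.26) and SNHG10 (-0.59 and -0.36) were just below 0. The sign of SNHG18 and SNHG20 turned with a pseudocount of 0.1, with FPKM rescaled without mitochondrial genes and on both count scales, whereas SNHG26 and SNHG14 stayed above 0 with all of these.

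**Figure D2:**
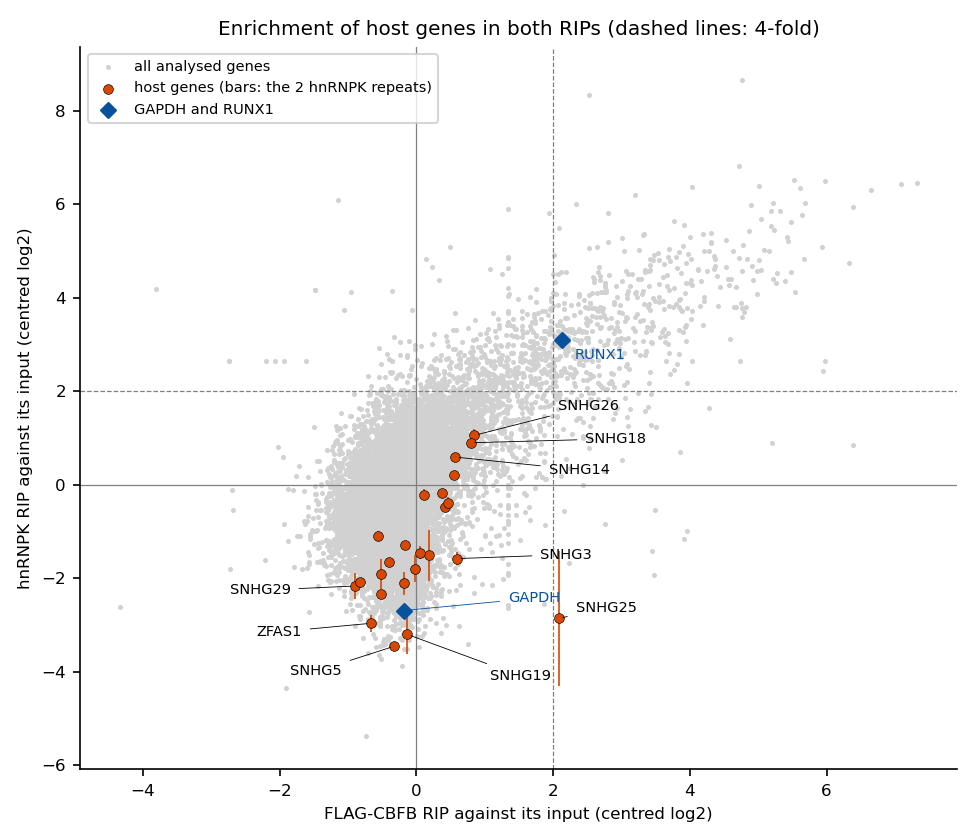
Centred log2 enrichment in the FLAG-CBFB RIP (horizontal) and in the hnRNPK RIP (vertical, mean of 2 repeats) for all 11764 analysed genes in grey, the 24 host genes in orange with bars from 1 repeat to the other, and GAPDH and RUNX1 in blue. Dashed lines mark 4-fold. No host lies above the horizontal dashed line, and SNHG25 alone lies to the right of the vertical one.

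On counts, the hnRNPK RIP was tested with edgeR's quasi-likelihood test, 2 repeats against 1 parental input, with the spread taken from the repeats alone. Each SE below is the one that the test's F statistic implies for the log2 change, and not a separate estimate of spread. Of 25 hosts that passed the count filter (the 24 and SNHG28), 13 were lower at an adjusted p under 0.05, or 52.0%, beside 15.8% of the 16639 genes tested. One host was higher, SNHG26, beside 21.9%. The 13 were GAS5, ZFAS1, SNHG1, SNHG3, SNHG5, SNHG6, SNHG9, SNHG10, SNHG15, SNHG19, SNHG29, SNHG30 and SNHG32. The test was lost for 7 of the 13 against the other input, as given with the inputs.

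SNHG19 fell by 2.89 ± 0.49 (SE) on the log2 scale (edgeR, adjusted p = 2.72e-08), from 1574 parental counts to 12 and 29 for the repeats. SNHG5 fell by 2.36 ± 0.35 (adjusted p = 1.18e-10), from 17186 to 357 and 315. ZFAS1 fell by 1.94 ± 0.35 (adjusted p = 2.14e-07), from 11350 to 381 and 227. These 3 had the largest falls with an SE under 0.5. GAS5 fell by 1.18 ± 0.33 (adjusted p = 0.00186), from 31059 counts to 1451 and 1303. SNHG29 fell by 1.05 ± 0.33 (adjusted p = 0.00514). SNHG32 fell by 1.18 ± 0.35 (adjusted p = 0.003). The other 7 that passed had log2 changes between -0.91 (SNHG1) and -1.83 (SNHG30).

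SNHG10 and SNHG30, near 0 on the FPKM scale, had log2 changes of -1.73 and -1.83 in this test. They rested on 12 and 20 counts for SNHG10 and on 19 and 13 for SNHG30 in the repeats. SNHG26 rose by 1.64 ± 0.54 (edgeR, adjusted p = 0.00927), with 233 parental counts and 69 and 75 for the repeats. SNHG25 had a log2 change of -2.36 ± 1.01 and did not pass (adjusted p = 0.05). SNHG16 had -0.13 ± 0.35 (adjusted p = 0.807) and SNHG14 0.45 ± 0.40 (adjusted p = 0.397). SNHG28 had 0.55 ± 1.18 on at most 53 counts in any library (adjusted p = 0.757). The median change of all genes tested was -0.12.

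The FLAG-CBFB RIP, with 1 library in each arm and no test, left the hosts near the average gene. Their median enrichment was 0.02, beside -0.19 over all analysed genes, and 12 of 24 were below 0, beside 64.9% of all analysed genes. SNHG25 was above 4-fold, where 4.37% of all analysed genes were, and it was also the one host above 2-fold, beside 9.27%. No host was below -1, beside 3.81%. SNHG25 stood at 2.08 on 24 counts in the RIP and 46.8 in its input, and fell to -1.08 against the parental input. After it came SNHG26 (0.85), SNHG18 (0.79), SNHG3 (0.59), SNHG14 (0.56) and SNHG20 (0.55). The lowest were SNHG29 (-0.90), SNHG32 (-0.82), ZFAS1 (-0.66), SNHG16 (-0.57), GAS5 (-0.52) and SNHG9 (-0.51). RUNX1 stood at 2.13 and GAPDH at -0.18. The strong hosts had a median of -0.25, close to the -0.28 of all strong genes. The 8 weak hosts ran from 0.11 to 0.85, with a median of 0.51. The log2(FPKM + 1) scale limits how low such genes can fall here too. A value of 0 in the RIP would have given SNHG18 0.01, SNHG26 -0.43, SNHG14 -0.52 and SNHG20 -0.64. The sign of SNHG18 was thus fixed by the scale.

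The inputs of the cell lines differed for many hosts. The input of FLAG-CBFB cells minus the parental input, centred in the same way, had a median of -0.78 over the hosts and 0.005 over all analysed genes, and 16 of 24 hosts were below -0.5, beside 18.3%. With 1 library each, this has no replicate check, and cell line, culture and library cannot be told apart. SNHG25 (-3.17), SNHG19 (-1.31), SNHG21 (-1.28), SNHG9 (-1.25) and SNHG3 (-1.22) were lowest in the FLAG-CBFB cells. SNHG29 (0.83) and SNHG16 (0.46) were higher there, and ZFAS1 (-0.05), SNHG32 (-0.02), SNHG6 (-0.15) and GAS5 (-0.18) were close to equal.

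The choice of input therefore bore on the hosts. Set against the input of FLAG-CBFB cells, the hnRNPK median of the hosts was -0.55 beside -0.17 for all genes, and 15 of 24 were below 0, beside 55.3% of all genes. In edgeR 6 of 25 were then lower (GAS5, ZFAS1, SNHG5, SNHG19, SNHG29 and SNHG32), or 24%, beside 18.1% of the 16888 genes tested with that input. SNHG14 and SNHG26 were higher, beside 22.7%. The share of hosts lower was thus near that of all genes. SNHG5 stood at -2.96, ZFAS1 at -2.91, SNHG29 at -2.99, GAS5 at -2.14, SNHG32 at -2.06, SNHG6 at -1.95 and SNHG19 at -1.89 against that input. SNHG3 went from -1.58 to -0.36, SNHG9 from -1.90 to -0.66, SNHG1 from -1.79 to -0.87 and SNHG25 from -2.86 to 0.31. DESeq2 with the parental input called the same 6 lower, beside 10.3% of the 16520 genes to which it gave an adjusted p, and SNHG26 higher, beside 19.3%.

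**Figure D3:**
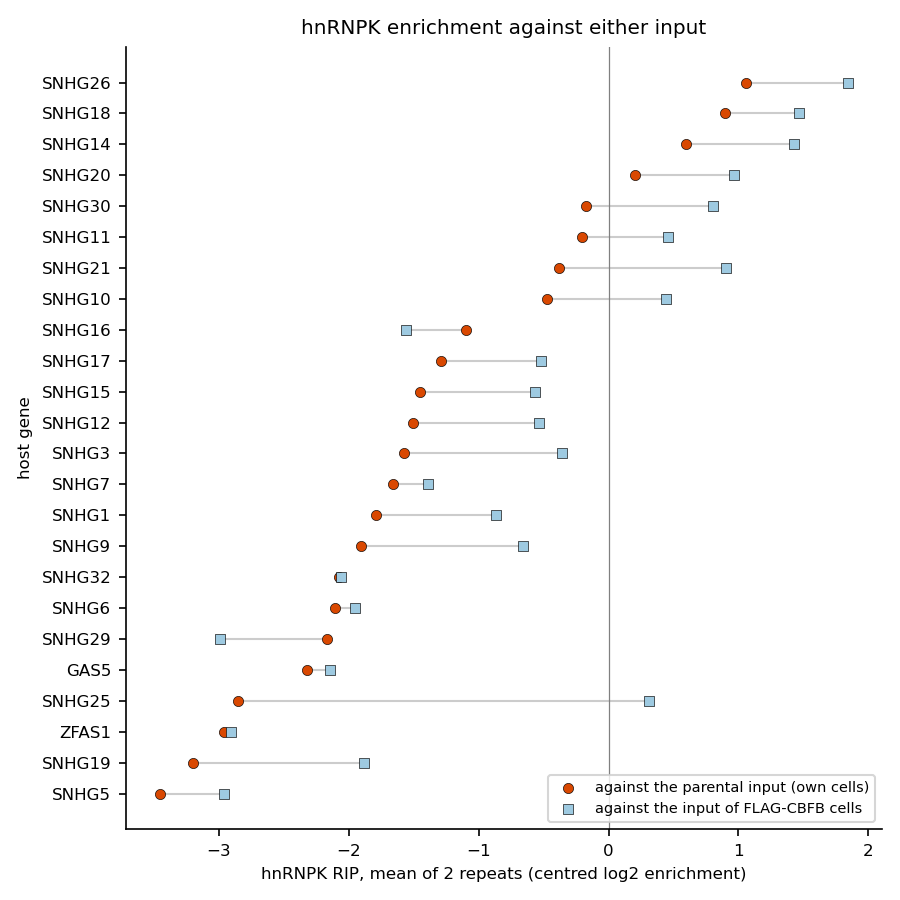
hnRNPK RIP enrichment of the 24 host genes (mean of 2 repeats, centred log2) against the parental input (circles) and against the input of FLAG-CBFB cells (squares), ordered by the first. SNHG5, ZFAS1, GAS5, SNHG6, SNHG29 and SNHG32 stay at -1.95 or below with either input, while SNHG10, SNHG11, SNHG21, SNHG25 and SNHG30 cross 0.

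Other gene lists give the scale of these values. In edgeR 15.8% of all genes tested were lower and 21.9% higher. These shares stand beside the counts in this and the next paragraph. The cytosolic ribosomal protein mRNAs, which code for the ribosome's own proteins, had a median hnRNPK enrichment of -2.64 over 81 analysed of 84, and 72 were lower in edgeR. RPS29 (-3.71) and RPL34 (-3.65) were the lowest and RPL39L (-0.62) the highest. Protein-coding genes with a snoRNA inside had a median of -1.54 over 146 analysed, with 81 lower and 23 higher, but 28 of the list were ribosomal protein genes. Without those the median was -1.08 over 118 genes, with 54 lower and 23 higher. SRCAP (3.78) and ZBED3 (4.07) were the highest of them. Against the parental input the host genes thus lay between the ribosomal protein mRNAs and the other coding hosts, though the difference was not tested. The median input difference (FLAG-CBFB minus parental) was -0.78 for host genes, -0.10 for ribosomal protein mRNAs and 0.01 for other coding hosts. The host median was -0.55 against the input of FLAG-CBFB cells. The other lists were not set against that input, so the order may not hold there.

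Other long noncoding RNAs had a median of -0.80 over 10 analysed of 12, with 1 lower (CYTOR, at -2.12) and 4 higher. MALAT1, an abundant nuclear RNA, stood at 1.75 and 3.19 in the repeats, and RPPH1, the RNA of RNase P, at 0.78 and 2.47. DANCR, at -1.69, did not pass (adjusted p = 0.132, edgeR). The proteins that assemble snoRNAs into particles had a median of -1.62 over 19 mRNAs, with 11 lower and 1 higher. SNU13 (-2.95) and NOP10 (-2.78), which are core particle proteins, were lowest, and NAF1 (4.11), an assembly factor, was the one that was higher. The mRNAs of the nonsense-mediated decay factors had a median of -0.44 over 10, with 4 lower and 3 higher. Among them UPF1 (-1.34), the central helicase, was lowest, and SMG6 (3.29), its endonuclease partner, highest.

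In the FLAG-CBFB RIP the medians were -0.49 for the ribosomal protein mRNAs, -0.46 for the coding snoRNA hosts, 0.04 for the long noncoding RNAs, -0.31 for the particle proteins and -0.32 for the decay factors. The 0.02 of the host genes was nearest to that of the long noncoding RNAs.

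Level and length moved with the hnRNPK value. Across the 24 hosts, Spearman's rho of hnRNPK enrichment was -0.889 with mean FPKM and 0.709 with transcript length in the parental input. Over all 11764 analysed genes it was -0.596 and 0.302. These are descriptions across genes of the same libraries, and the same FPKM values enter both sides of the first. The 5 hosts under 500 nt (SNHG5, SNHG6, SNHG9, SNHG19 and SNHG25) had a median of -2.86, beside 0.39 for the 396 analysed genes of that length. The 11 hosts of 500 to 1000 nt had -1.51 beside -1.09, the 4 of 1000 to 1500 nt -0.81 beside -0.74, and the 3 of 1500 to 2500 nt -1.10 beside -0.27. The 1 host of 2500 to 5000 nt, SNHG14, stood at 0.59 beside 0.23. The median of the 5 hosts under 500 nt was the uncertain value of SNHG25, which rested on 4 and 1 counts in the repeats. All 5 averaged at least 10 FPKM, whereas the 396 genes of that length were filtered at 1 FPKM only. The levels of the 2 sets are thus unlike. The parts of level and length in the host values were not tested. Runs of C per kilobase had a rho of 0.227 with the hnRNPK value over the hosts and 0.222 over 11538 analysed genes.

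**Figure D4:**
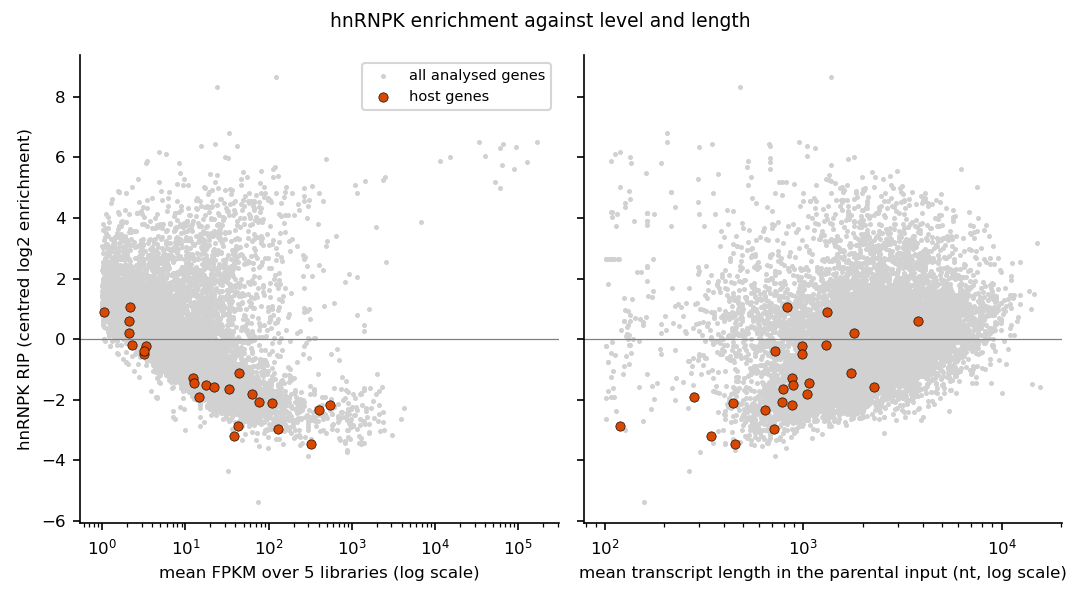
hnRNPK RIP enrichment (mean of 2 repeats, centred log2) against mean FPKM over the 5 libraries (left) and against mean transcript length in the parental input in nt (right), both on log axes. Grey points are all analysed genes and orange points the 24 hosts, which run from SNHG26 at 1.06 down to SNHG5 at -3.45.

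The libraries measured the spliced hosts and, where a snoRNA had a row, hardly the snoRNAs within them. GENCODE 29 places 131 snoRNA genes inside 25 of the hosts on the same strand, 83 of them in SNHG14. Of these, 92 had a row, 82 were listed at 0 counts in every library and 2 reached 10 counts in any library. The 2 were SNORA73B in SNHG3, with 28, 15, 31, 3 and 5 counts in the library order above, and SCARNA13 in SNHG10, with 7.1, 5, 16, 13.8 and 3.2. All of them summed to 149 counts over the 5 libraries, against 473637 for the hosts. With so few counts the snoRNA rows allow no comparison of RIP with input. Most of the rows lay in SNHG14, a weak host. The snoRNAs placed inside the stronger hosts SNHG1, SNHG5, SNHG7 and SNHG29 had no row, and none was placed inside GAS5. For these hosts the snoRNAs were therefore not examined.

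The mean transcript length that RSEM assigned was within 10% of that in the parental input in both hnRNPK repeats for 10 of the 16 strong hosts. SNHG25 had ratios of 2.32 and 0.88, and over the other 15 the ratios ran from 0.87 (SNHG3) to 1.19 (SNHG15). The ratio of hnRNPK RIP to parental input was 1.06 and 1.03 for SNHG5, 1.03 and 1.05 for GAS5, 0.998 and 1.019 for SNHG29 and 1.013 and 0.995 for SNHG32. ZFAS1 had 1.09 and 1.07. Several hosts overlap an expressed gene and their values are uncertain to that extent, since the use of strand in counting is not given in the sources used here. SNHG3 overlaps RCC1 on the same strand, SNHG20 overlaps SEC14L1 and SNHG14 overlaps SNRPN. On the opposite strand SNHG10 overlaps GLRX5, SNHG12 TRNAU1AP, SNHG14 UBE3A and ZFAS1 ZNFX1. ZNFX1 read 5.33 FPKM in the parental input, beside 294.5 for ZFAS1, whereas GLRX5 read 49.0 beside 9.38 for SNHG10.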

How the data were processed

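Total RNA of 5 MCF10A libraries (2 inputs, 1 FLAG-CBFB RIP and 2 hnRNPK RIP repeats) was measured with TruSeq mRNA kits, and samples were grouped by title. Per the submitters' processing notes the authors used Trimmomatic, STAR, RSEM and hg19; versions and the annotation release are not given in the sources used here. The authors deposited RSEM expected counts (estimated counts that need not be whole), FPKM and TPM per gene, with transcript lengths. The deposited TPM values were not used.

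Identifiers were named through a gene name table (38892 of 56632) and GENCODE 29 on GRCh38. The members and comparison lists were chosen with earlier results of these data known. Every analysed member was named, with 2 to 4 examples per list by highest and lowest hnRNPK enrichment. Enrichment was log2(FPKM + 1), RIP minus own input, centred over genes averaging 1 FPKM or more; this understates changes of weak genes. It is a reading of the adjusted FPKM of the study, which does not state its adjustment. Calls used log2 thresholds of 2 and 1. The hnRNPK test was edgeR 4.0.16 (R 4.3.3) quasi-likelihood on rounded counts with TMM, filterByExpr and Benjamini-Hochberg adjustment at 0.05, checked on simulated data. Wilson intervals (95%) covered counting error only, since reads carried no molecular identifiers used here. DESeq2 1.42.0, other scalings, filters, inputs and leaving out each repeat were alternatives.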

Additional observations from a re-analysis of the deposited data

Results flagged for a closer look

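For 8 host genes the FLAG-CBFB RIP stood above 0 and both hnRNPK repeats stood below 0, or 33.3% of 24, beside 8.16% of all analysed genes. The reverse pattern was found in 0 hosts and in 18.9% of all analysed genes. The difference between the proteins was not tested: the FLAG-CBFB arm held a single library, and the RIPs have different inputs. The FLAG-CBFB value minus the mean hnRNPK value was 4.94 for SNHG25, 2.17 for SNHG3, 1.69 for SNHG12, 1.51 for SNHG15, 0.90 for SNHG10, 0.84 for SNHG21, 0.54 for SNHG30 and 0.32 for SNHG11. SNHG11 and SNHG30 lay near 0 in all 3 RIP libraries, SNHG11 at 0.11 for FLAG-CBFB and -0.33 and -0.09 for hnRNPK and SNHG30 at 0.37, -0.19 and -0.16. All 8 FLAG-CBFB values turned below 0 against the parental input. SNHG25 rested on 24 counts in the FLAG-CBFB RIP and on 4 and 1 in the hnRNPK repeats.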

How the results depend on the processing

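The hnRNPK median of the hosts, -1.54, stayed below 0 with every setting run, and no setting put a host above 4-fold in the hnRNPK RIP. It was -4.19 without centring, -2.80 with no filter on low values, -0.55 with the opposite input, -1.21 with FPKM rescaled without mitochondrial genes, -1.19 on log2 CPM with TMM factors, -1.08 with DESeq2 size factors and, chosen after seeing the data, -1.99 over hosts of at least 10 FPKM. All genes moved as well: the host median minus that of all analysed genes was -1.43 as reported, -0.80 with the mitochondrial rescaling, -0.74 on both CPM scales and -0.38 with the opposite input. Leaving out a repeat gave -1.66 to -1.36, with 0 hosts above 4-fold in either. With the 2-fold threshold the hnRNPK count was 1. The FLAG-CBFB median of 0.02 was near 0 and its sign was not stable: -1.32 without centring, -0.17 with genes of at least 5 FPKM, -0.56 with no filter, -0.68 with the opposite input, -0.019 with EPB41L4A-AS1, -0.25 over hosts of at least 10 FPKM and -0.019 without SNHG25 (the last 2 chosen after seeing the data). It was 0.21 centred on the median, and 0.24 and 0.26 on log2 CPM with TMM and DESeq2 size factors. The count above 4-fold in the FLAG-CBFB RIP fell from 1 to 0 without centring, with no filter, with the opposite input, on both CPM scales and without SNHG25. With the opposite input SNHG25 turned to -1.08 for FLAG-CBFB and 0.31 for hnRNPK.

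In edgeR the 13 lower hosts became 6 in DESeq2 (10.3% of all genes lower) and 6 with the opposite input (18.1% of all genes lower), and the 1 higher host became 2 with the opposite input. The causes were not tested. With no filter on low counts 16 of 25 hosts were lower, beside 3443 of 24642 genes. Without a repeat the hnRNPK comparison is 1 library against 1, which leaves no test. No paired analysis was possible because each input is a single library with no number to match. Depth limits SNHG9, SNHG10, SNHG18, SNHG19, SNHG21, SNHG25 and SNHG30, each under 30 counts in both hnRNPK repeats.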

Other observations

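Set directly against each other, with no input, the hnRNPK RIP minus the FLAG-CBFB RIP had a median centred log2 difference of -0.78 over the 24 hosts and 0.10 over all analysed genes. SNHG5 (-2.64), ZFAS1 (-2.25), SNHG29 (-2.09), SNHG25 (-1.77), SNHG6 (-1.77), SNHG19 (-1.75) and GAS5 (-1.62) were lowest. SNHG26 (0.99), SNHG14 (0.87) and SNHG18 (0.67) were highest. The RIPs came from different cell lines and antibodies, and no test was run.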
